A study of Mus musculus with 6 samples.

Results

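The 10 genes described here (Cdh5, Pecam1, Esam, Cldn5, Emcn, Eng, Sox17, Sox18, Egfl7 and Cd34) encode junction proteins, surface molecules, a secreted factor and transcription factors used to recognise endothelial cells. They were taken by symbol from the 51912 genes counted in every library. All 10 were found, and all 10 were among the 12668 genes that passed the filter on low counts. RNA came from green cells of the aorta-gonad-mesonephros (AGM), the embryonic region around the dorsal aorta, of MacGreen (Csf1r-EGFP) mouse embryos at E10.5, in which the Csf1r promoter drives EGFP. Every library therefore holds EGFP-positive cells, which are macrophages and other cells with an active Csf1r promoter. Sorting on CD206, the mannose receptor encoded by Mrc1, separated GFP+CD206- cells (CD206neg) from GFP+CD206+ cells (CD206pos). There were 3 litters and 3 libraries of either population, each pooled from 3 to 5 AGM. All samples were digested for 45 min at 37 °C. Libraries whose titles carry the same AGM number are called litter 1, 2 or 3 here, a reading that the labels do not state outright. None of the 6 libraries came from GFP-negative cells or from cells sorted as endothelial.

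Endothelial cells line vessels and are held together by adherens junctions, built on VE-cadherin, and by tight junctions, built on claudins and related adhesion molecules. In the dorsal aorta of the AGM, haemogenic endothelial cells round up and give rise to blood stem and progenitor cells. Several surface molecules of the endothelium, among them CD34, PECAM1, endoglin and ESAM, are also carried by early blood progenitors, and PECAM1 and endoglin are known on monocytes and macrophages too. The transcription factors SOX17 and SOX18 of the SoxF group act in endothelial and arterial specification.

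Libraries held 16730846 to 18214283 reads in genes, and levels are given as CPM, a gene's reads scaled by its library's total. Mrc1, the gene of the sorted antigen, averaged 93.9 ± 36.8 CPM for CD206neg against 1585 ± 181 CPM for CD206pos (SD, n = 3), which matched the labels. Csf1r was between 1489 and 2833 CPM and Cx3cr1, a macrophage receptor gene, between 926 and 2060 CPM over the 6 libraries. The CD206pos library of litter 3 stood apart for several members, and their results are given with and without it. That library was singled out by these same values, so results without it are descriptions and no further support. CPM were scaled by TMM, a method that equalises library composition, on which scale 3 reads correspond to 0.163 to 0.183 CPM, and differences are log2 fold changes of CD206pos over CD206neg from edgeR's quasi-likelihood test, called at an adjusted p under 0.05. In bulk RNA, fewer cells of a type and less RNA per cell cannot be told apart.

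CD206neg cells contained transcripts of all 10 genes in all 3 litters. CD206pos cells contained Pecam1, Eng, Egfl7 and Cd34 in every litter, had no read of Sox17 or Sox18, and contained Esam, Cldn5 and Emcn only in litter 3, where 25 of the 27 Cdh5 reads of this population also lay. By edgeR, 2 of the 10 genes, Cd34 and Sox17, fell in CD206pos and none rose, where 4.87% of all tested genes were called, 1.90% lower and 2.97% higher. With DESeq2 6 of them were called lower, where 4.63% of all genes were, and without the CD206pos library of litter 3 edgeR called 4, Cd34, Sox17, Esam and Emcn, where 1.39% of all genes were called lower. Esam and Emcn then had no CD206pos read left, so their calls follow from the choice of the library left out. In 9 of the 10 genes, all but Cldn5, every CD206neg library was above every CD206pos library, a separation in this direction that 11.8% of tested genes showed. The median log2 fold change of the 10 genes was -2.88, against -0.0043 over all tested genes. Leaving out CD206pos of litter 3, the fitted median was -6.67, or -4.42 with genes lacking any CD206pos read set at their bound, so the median turned on 1 library. Of the 10 genes, 6 reached the level of the filter only in CD206neg, so these counts and medians are descriptions.

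**Figure D1:**
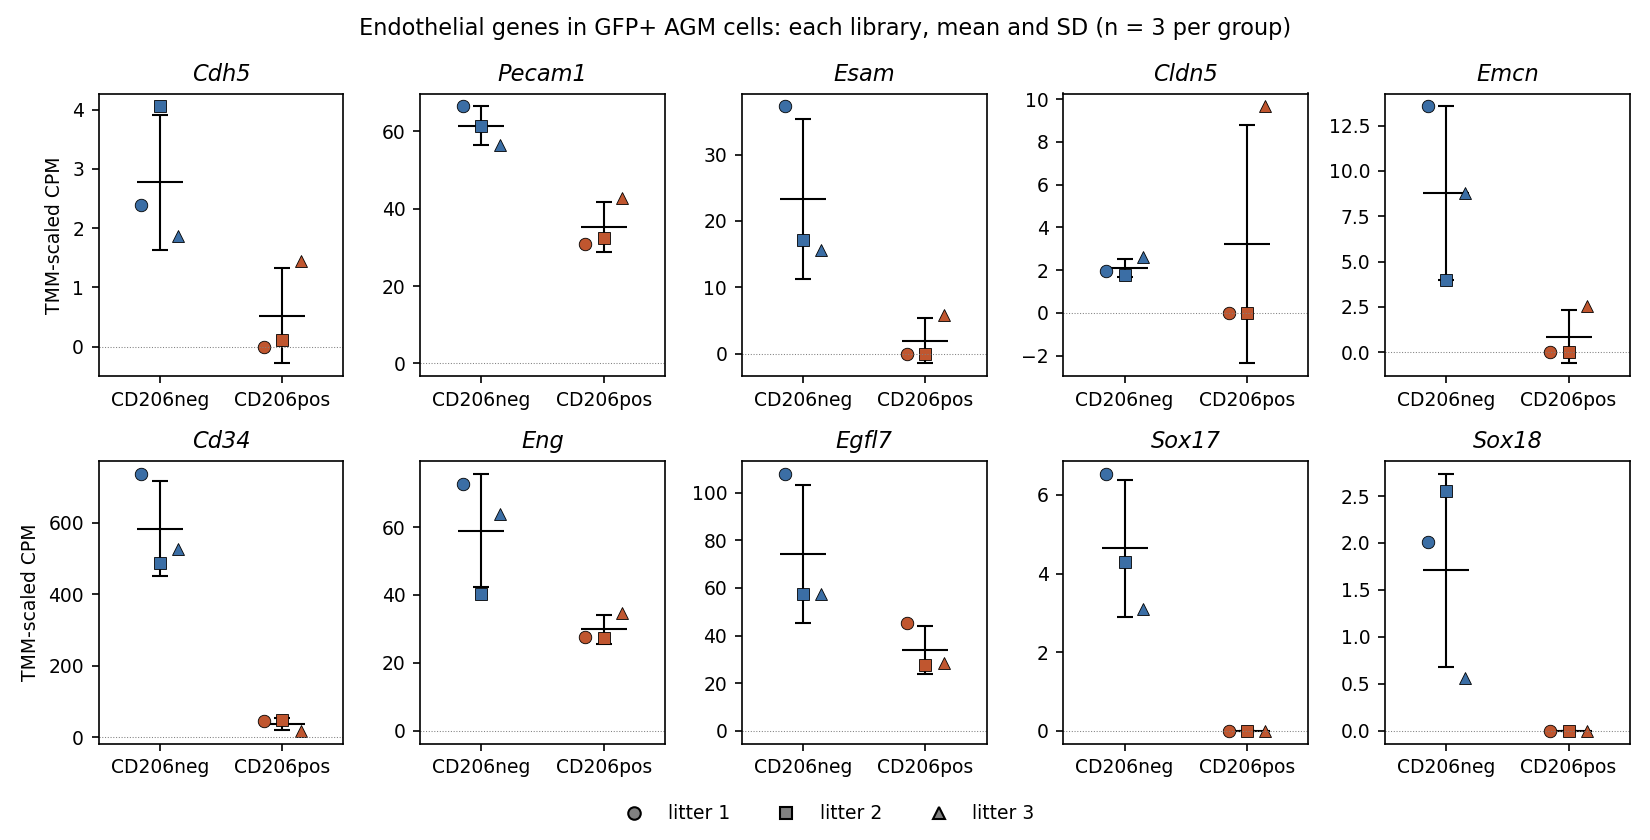
TMM-scaled CPM of each gene (vertical axis, a separate scale per panel) in CD206neg and CD206pos libraries, with litters as symbols and bars for the mean ± SD of 3 libraries. Cd34 lies between 489 and 736 CPM in CD206neg and between 18.3 and 49.95 CPM in CD206pos, and Esam, Cldn5, Emcn and Cdh5 are at or near 0 in CD206pos except in litter 3.

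Bases upstream of the annotated start are shown for Cd34, the member with the largest level and a called change, for Eng, which stayed present in both populations, and for Cldn5, whose groups overlapped. They are reference sequence from RefSeq (GRCm38.p6), 5′ to 3′ on the plus strand, ending before the first annotated exon base. Capitals mark an ETS core (GGAAGT), a SOX core (ACAAT) or a GATA core (GATAA) on either strand, none of which overlapped another here.
Cd34, chr1:194938571-194938818: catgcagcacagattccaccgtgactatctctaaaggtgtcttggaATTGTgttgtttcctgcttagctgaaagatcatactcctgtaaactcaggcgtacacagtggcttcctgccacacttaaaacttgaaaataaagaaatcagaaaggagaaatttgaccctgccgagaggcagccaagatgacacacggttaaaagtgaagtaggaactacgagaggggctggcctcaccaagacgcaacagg
Eng, chr2:32646345-32646594: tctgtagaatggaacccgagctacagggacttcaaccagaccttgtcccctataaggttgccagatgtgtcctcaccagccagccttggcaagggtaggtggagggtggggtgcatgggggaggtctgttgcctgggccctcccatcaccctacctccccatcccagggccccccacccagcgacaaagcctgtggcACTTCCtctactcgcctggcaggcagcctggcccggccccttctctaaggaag
Cldn5, chr16:18776597-18776846: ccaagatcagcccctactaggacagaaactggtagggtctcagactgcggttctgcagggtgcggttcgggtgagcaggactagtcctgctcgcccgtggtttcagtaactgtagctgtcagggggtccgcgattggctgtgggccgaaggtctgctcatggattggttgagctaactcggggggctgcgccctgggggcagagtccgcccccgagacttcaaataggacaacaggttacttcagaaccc
The Cd34 window held 1 SOX core, the Eng window 1 ETS core and the Cldn5 window none of these letters. RefSeq windows were also found for Emcn and, at 3 starts, for Egfl7. The Emcn window held 1 SOX core, and the Egfl7 windows held 3 ETS cores and 1 GATA core in all. Over 32851 starts of the same length, 19.7% held the ETS, 27.7% the SOX and 22.6% the GATA letters, so these are common words and no site or binding was measured.

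Of the surface sialomucins, Cd34 was abundant and Emcn sparse. Cd34 encodes the CD34 antigen of endothelial and blood progenitor cells (ENSMUSG00000016494.9, GRCm38 chromosome 1, 194938819 to 194961279, plus strand, 7 merged exons). Its CD206neg levels were 736, 489 and 526 CPM (litters 1, 2 and 3, the order used throughout), against 46.0, 49.95 and 18.3 CPM for CD206pos. The lowest CD206neg library was thus far above the highest CD206pos library, and the lowest level of all was in CD206pos of litter 3. The means were 584 ± 134 and 38.1 ± 17.2 CPM (SD, n = 3), and Cd34 fell 15.3-fold (log2 fold change -3.94 ± 0.38, SE, edgeR adjusted p = 0.0014). Within litters the level in CD206neg was 16.0, 9.78 and 28.7 times that in CD206pos. The call was kept when any one library was left out and was lost without litter 2 (adjusted p = 0.075), a fit that called only 1 of all genes lower. Of the summed CPM of the 10 genes, not divided by gene length, Cd34 made up 70.3% to 71.7% in CD206neg and 12.8% to 36.3% in CD206pos.

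Emcn encodes endomucin, the other sialomucin, found on venous, capillary and haemogenic endothelium (ENSMUSG00000054690.17, GRCm38 chromosome 3, 137341067 to 137432185, plus strand). It was at 13.6, 4.00 and 8.80 CPM in CD206neg and at 0, 0 and 2.55 CPM in CD206pos, the last from 44 reads. No CD206pos library reached the lowest CD206neg library. The log2 fold change of -3.36 ± 1.51 (SE) did not pass (edgeR adjusted p = 0.30). Without CD206pos replicate 3 no CD206pos read was left, the level was at least 99.0-fold lower and the adjusted p was 0.018, and without litter 3 the adjusted p was 0.059.

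The junction proteins themselves were represented by Cdh5, Pecam1, Esam and Cldn5. Cdh5 encodes VE-cadherin, the core adhesion receptor of endothelial adherens junctions (ENSMUSG00000031871.9, GRCm38 chromosome 8, 104101625 to 104144511, plus strand). Its reads were few, numbering 44, 70 and 33 for CD206neg against 0, 2 and 25 for CD206pos. These counts correspond to 2.40, 4.05 and 1.86 CPM against 0, 0.11 and 1.45 CPM. In litters 1 and 2 Cdh5 was nearly confined to CD206neg, while in litter 3 the CD206neg level was 1.29 times the CD206pos level. Cdh5 did not pass (log2 fold change -2.39 ± 1.43, SE, edgeR adjusted p = 0.46), nor under any alternative run, where the adjusted p lay between 0.15 and 0.88.

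Pecam1 encodes PECAM1 (CD31), an adhesion molecule of endothelial contacts that leukocytes and platelets also carry (ENSMUSG00000020717.19, GRCm38 chromosome 11, 106654217 to 106750628, minus strand). It was at 66.5, 61.5 and 56.6 CPM in CD206neg and at 30.8, 32.5 and 42.8 CPM in CD206pos. The groups did not overlap, and the difference was small beside that of Cd34. The mean in CD206neg was 1.74 times that in CD206pos (log2 fold change -0.80 ± 0.21, SE), with an edgeR adjusted p of 0.068. Pecam1 passed in 4 of 18 alternatives. The adjusted p was 0.046 with library totals as the only scaling, 0.045 with limma-voom, 0.050 (just under the threshold) with the stricter filter and 0.0056 with DESeq2.

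Esam encodes an immunoglobulin-type adhesion molecule of endothelial tight junctions that also marks blood stem cells (ENSMUSG00000001946.14, GRCm38 chromosome 9, 37528078 to 37538319, plus strand). It was at 37.3, 17.1 and 15.7 CPM in CD206neg, and at 0, 0 and 5.84 CPM in CD206pos. Every CD206neg library was above the CD206pos library of litter 3, and the other CD206pos libraries had no read. The log2 fold change of -3.57 ± 1.43 (SE) did not pass (edgeR adjusted p = 0.24). Without CD206pos replicate 3 no CD206pos read was left, and Esam was at least 263.0-fold lower (adjusted p = 0.0066). Without litter 3 the adjusted p was 0.015.

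Cldn5 encodes claudin 5, the main claudin of endothelial tight junctions, and is a gene of 1 exon (ENSMUSG00000041378.1, GRCm38 chromosome 16, 18776847 to 18778260, plus strand). Reads numbered 36, 31 and 46 for CD206neg and 0, 0 and 167 for CD206pos. The highest Cldn5 level of all, 9.66 CPM, was thus in CD206pos of litter 3, where CD206neg had 2.59 CPM, and the groups overlapped. The log2 fold change was 0.60 ± 1.77 (SE, edgeR adjusted p = 0.92) and without CD206pos replicate 3 the level was at least 23.9-fold lower (adjusted p = 0.094). No direction can be given for Cldn5.

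Eng encodes endoglin, a co-receptor for TGF-beta family ligands on endothelium, on blood stem cells and on activated macrophages (ENSMUSG00000026814.16, GRCm38 chromosome 2, 32646595 to 32682669, plus strand). It was at 72.6, 40.4 and 63.9 CPM in CD206neg and at 27.6, 27.2 and 34.8 CPM in CD206pos. The lowest CD206neg library was above the highest CD206pos library by less than the spread within CD206neg. The mean in CD206neg was 1.97 times that in CD206pos (log2 fold change -0.98 ± 0.26, SE, edgeR adjusted p = 0.076). Eng passed in 2 of 18 alternatives, with the stricter filter (adjusted p = 0.044) and with DESeq2 (adjusted p = 0.0084), and not with limma-voom (adjusted p = 0.11).

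Egfl7 encodes a secreted matrix protein of endothelial cells that is also made by early blood progenitors (ENSMUSG00000026921.18, GRCm38 chromosome 2, 26580014 to 26593120, plus strand, 11 merged exons). It was at 107.9, 57.3 and 57.5 CPM in CD206neg and at 45.4, 27.7 and 28.3 CPM in CD206pos. Litter 1 was highest in each population, and within litters the CD206neg level was 2.38, 2.07 and 2.03 times the CD206pos level. The log2 fold change was -1.13 ± 0.32 (SE), with an edgeR adjusted p of 0.094. Egfl7 passed in 3 of 18 alternatives, with the stricter filter (adjusted p = 0.044), with DESeq2 (adjusted p = 0.0082) and with the AGM number as a block (adjusted p = 0.016).

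Egfl7 is the host gene of miR-126, a microRNA abundant in endothelium, and its span holds the Mir126a locus. The mature arm is shown, with its seed (bases 2 to 8) in capitals, because it lies inside the counted gene (chr2:26591402-26591423, plus strand, RefSeq, GRCm38.p6).
mmu-miR-126a-3p: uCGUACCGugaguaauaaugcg
Mir126a itself had 0 reads in all 6 libraries. Its 73 annotated bases are all shared with Egfl7 exons, and reads over shared bases are not counted for either gene by the counting program's defaults, so this 0 says nothing of the microRNA. In all, 11.2% of the Egfl7 exon bases were shared with other genes. The share was 16.9% for Sox17, 2.03% for Cd34, 1.51% for Eng and 0% for the other members.

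The transcription factor genes Sox17 and Sox18 were present at low levels in CD206neg and absent from the reads of CD206pos. Sox17 (ENSMUSG00000025902.13, GRCm38 chromosome 1, 4490931 to 4497354, minus strand) encodes a SoxF factor of arterial and haemogenic endothelium. CD206neg had 120, 74 and 55 Sox17 reads, or 6.54, 4.29 and 3.10 CPM, and no CD206pos library had any. Sox17 was at least 79.0-fold lower in CD206pos, a bound set by 3 reads over the group that covers counting error only, and its fall was called (edgeR adjusted p = 0.013). The call was lost without CD206neg replicate 1 or 2 (adjusted p = 0.085 and 0.088), and without litter 1, 2 or 3 (adjusted p = 0.089, 0.17 and 0.067). With the AGM number as a block it was also lost, narrowly (adjusted p = 0.053).

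Sox18 (ENSMUSG00000046470.5, GRCm38 chromosome 2, 181669836 to 181671640, minus strand) encodes the SoxF factor known from lymphatic and vascular development. CD206neg had 37, 44 and 10 Sox18 reads, and no CD206pos library had any. The level was at least 29.1-fold lower in CD206pos by the same bound, and the test did not pass (edgeR adjusted p = 0.062). Sox18 passed in 2 of 17 alternatives, without robust estimation (adjusted p = 0.044) and with DESeq2 (adjusted p = 0.0017). Reads at such levels were uneven: where a group averaged 20 to 50 reads for a gene, a library without any was found for 19.9% of these genes in CD206neg and 23.4% in CD206pos. Sox7, the remaining SoxF gene, averaged 1.14 ± 0.042 CPM for CD206neg with no read in CD206pos (edgeR adjusted p = 0.070).

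**Figure D2:**
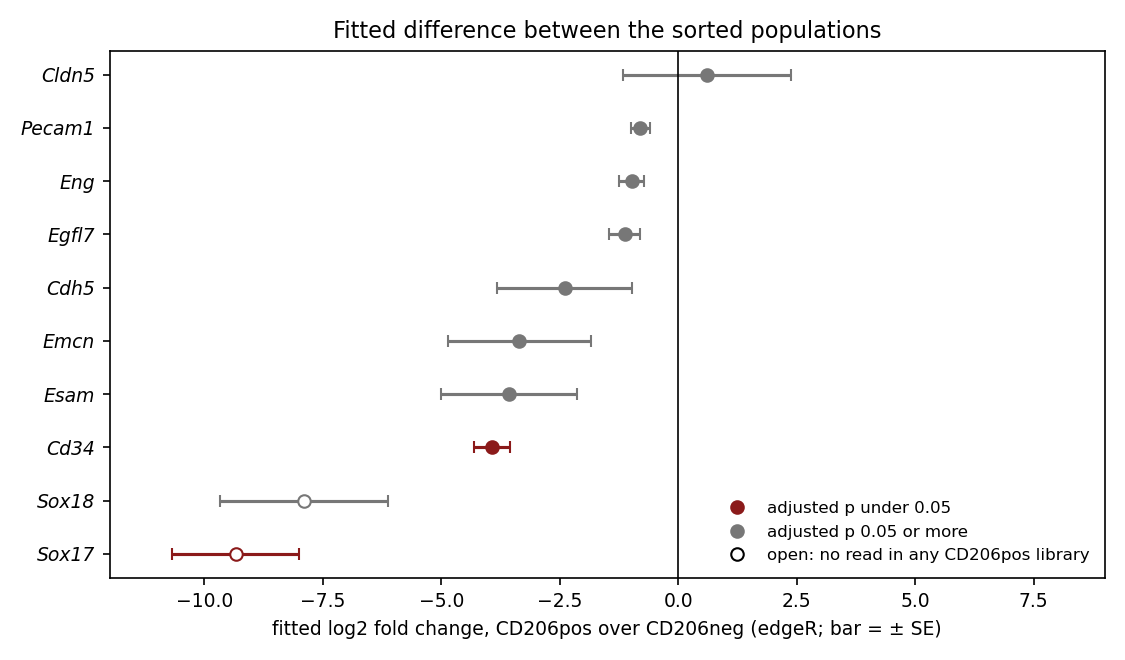
Fitted log2 fold change of CD206pos over CD206neg for each gene (horizontal axis, bars ± SE, edgeR), with called genes in dark red and genes without a CD206pos read as open circles. Cd34 (-3.94) and Sox17 are called, Pecam1, Eng and Egfl7 lie near -1 with short bars, and Cldn5 spans 0.

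Per kilobase of exon, which allows levels to be compared between genes, Cd34 led the list in CD206neg at 80.0 ± 18.3 CPM per kb (SD, n = 3), above 93.4% of tested genes. Egfl7 (20.7 ± 8.14), Eng (14.6 ± 4.12), Pecam1 (9.88 ± 0.79) and Esam (8.14 ± 4.21) CPM per kb came next, and each of these overlapped its neighbour in the order. A gap without overlap separated Esam from the remaining members, Emcn, Cldn5, Sox18, Sox17 and Cdh5, which had means between 0.66 and 1.62 CPM per kb with overlapping libraries. Cdh5 was the lowest, above 14.97% of tested genes. In CD206pos the first places went to Egfl7 (9.44 ± 2.79), Eng (7.38 ± 1.06), Pecam1 (5.67 ± 1.04) and Cd34 (5.23 ± 2.36) CPM per kb, all overlapping, above 61.0%, 56.0%, 51.0% and 49.3% of tested genes. Cd34 thus moved from clearly the highest member to a level like that of Pecam1.

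**Figure D3:**
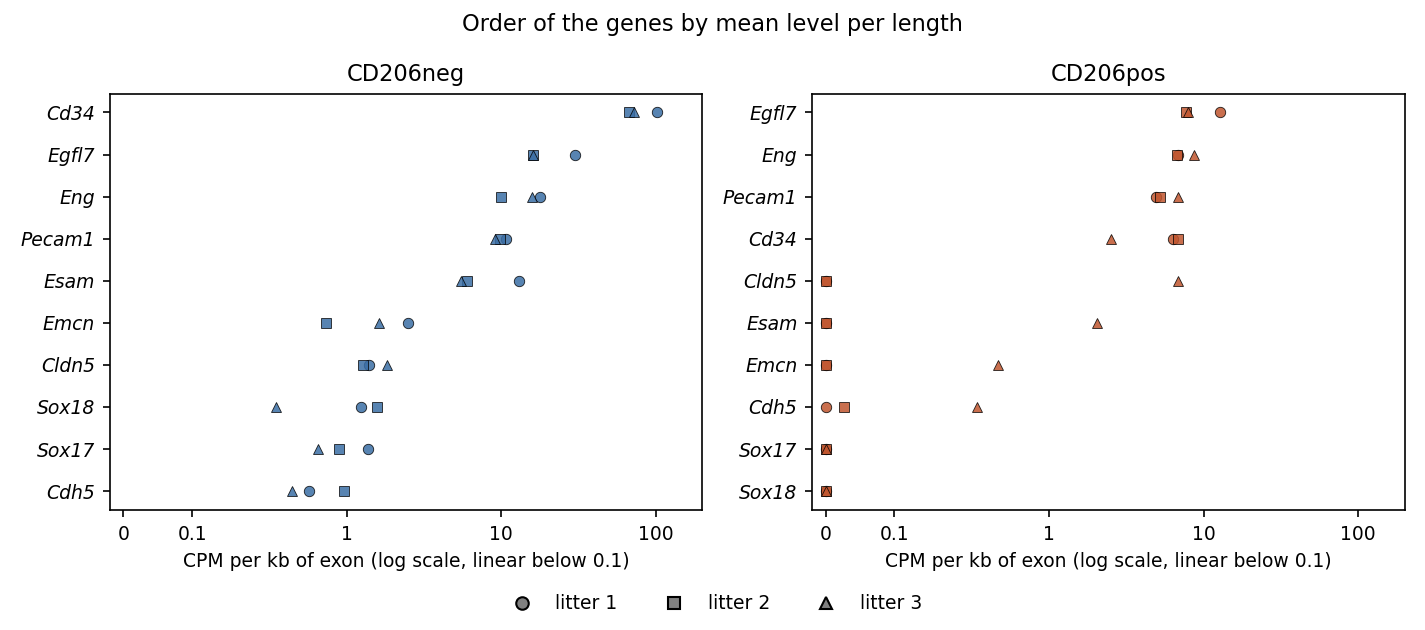
CPM per kilobase of exon (horizontal axis, logarithmic and linear below 0.1) of each gene in each library, ordered by group mean, with litters as symbols. Cd34 stands alone at 67.0 to 100.99 CPM per kb in CD206neg, and in CD206pos 4 genes lie between 2.52 and 12.7 CPM per kb in every library.

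The members did not vary alike across litters. In CD206neg, litter 1 had the highest level of 7 members, Cd34, Egfl7, Esam, Emcn, Pecam1, Eng and Sox17, and a summed level of 1047 CPM against 681 and 736 CPM in litters 2 and 3. In CD206pos the sums were 149.7, 137 and 144 CPM, close to each other, while their makeup differed. The CD206pos library of litter 1 had no read of 6 members, that of litter 2 of 5, and that of litter 3 of 2. Without Cd34 the sums were 311, 193 and 211 CPM in CD206neg and 104, 87.5 and 125 CPM in CD206pos.

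The CD206pos library of litter 3 stood apart for some junction genes and for many other genes. At least 20 reads there, with at most 2 in either of the other CD206pos libraries, were found for Cdh5, Esam, Cldn5, Emcn and the junction gene Cgnl1, and for the progenitor genes Angpt1, Gata2, Itga2b and Mecom. By the same rule 337 genes stood out in that library, against 114 and 176 in the CD206pos libraries of litters 1 and 2. These are of 12777 genes with at least 20 reads in any CD206pos library. In CD206neg 328 stood out in litter 3, against 125 and 121 in litters 1 and 2, of 13123 such genes. The sum of 10 mesenchymal marker genes was 83.3 CPM in CD206neg and 64.2 CPM in CD206pos of litter 3, and 2.01 to 11.9 CPM in the other libraries, and was carried by the collagen genes Col1a1, Col1a2 and Col3a1. Col3a1 had 538 and 532 reads in the litter 3 libraries and 0 to 16 elsewhere, and Col1a1 had 310 and 324 against 0 to 13. Other genes of that list, picked after their values were seen, went otherwise: Dcn was highest in CD206pos of litter 1 (6.48 CPM), Pdgfrb in CD206neg of litter 2 (8.86 CPM), and Postn was higher in CD206pos of litter 1 (3.24 CPM) than of litter 3 (1.74 CPM). Pdgfra had 128 reads in CD206neg and 0 in CD206pos of litter 3. Their part in the Cldn5, Esam, Emcn and Cdh5 values was not tested, and Sox17 and Sox18 had no read in that CD206pos library.

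**Figure D4:**
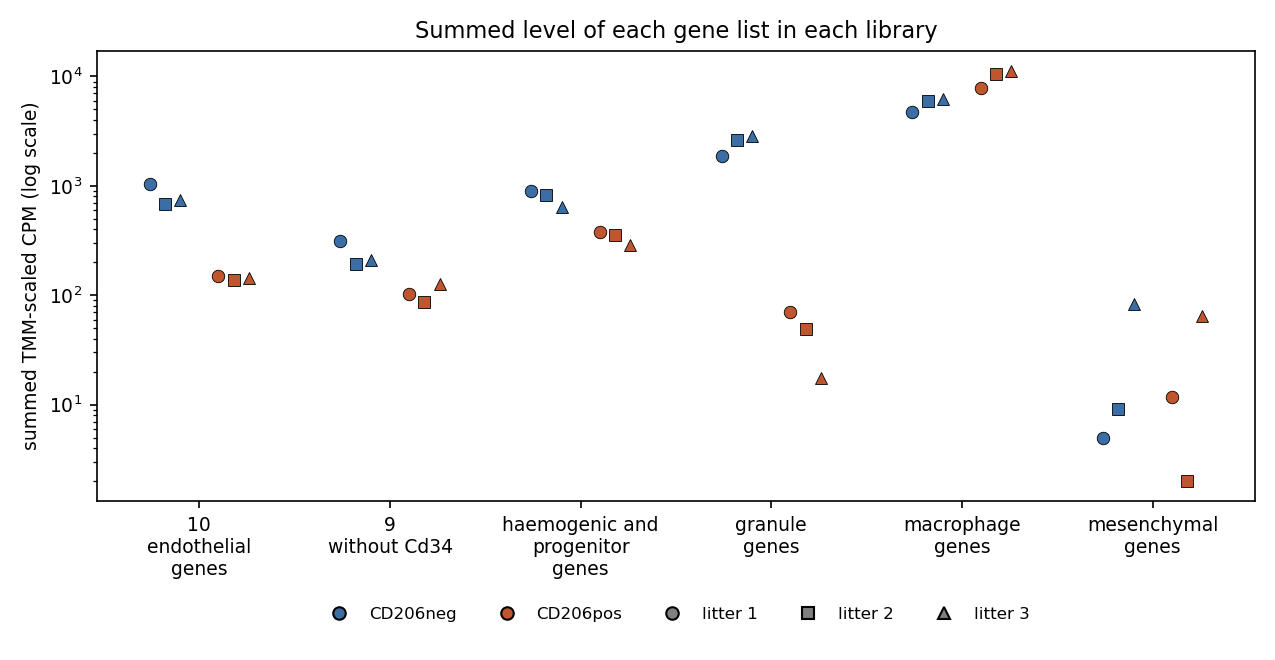
Summed TMM-scaled CPM (logarithmic axis) of the 10 endothelial genes, of the 9 without Cd34 and of 4 other lists, in each library, with colours for the population and symbols for the litter. The sum of the 10 genes lies between 681 and 1047 CPM in CD206neg and between 137 and 149.7 CPM in CD206pos, and the mesenchymal sum is high in both libraries of litter 3. The macrophage list includes Mrc1, the gene of the sorted antigen.

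Other endothelial genes were examined in a list of 30, of which 24 were tested. By edgeR, 5 fell in CD206pos, none rose and 19 did not pass, with a median log2 fold change of -1.58. Over all tested genes 1.90% fell and 2.97% rose. Flt1, a VEGF receptor gene, was at 42.9, 29.8 and 28.1 CPM in CD206neg and at 1.96, 6.30 and 2.66 CPM in CD206pos (adjusted p = 0.0076). The endothelial receptor kinase gene Tie1 fell 4.88-fold, from 49.8 ± 16.9 to 10.2 ± 3.08 CPM (adjusted p = 0.0085). Cd93, a surface glycoprotein gene of endothelium, stem cells and myeloid cells, fell 6.01-fold (adjusted p = 0.012). The other called genes, named after their values were seen to complete the count, were Erg, an ETS factor gene of endothelium and stem cells with 275, 62 and 69 against 0, 0 and 3 reads (adjusted p = 0.023), and Myct1 with 135, 25 and 28 reads against none (adjusted p = 0.039). Erg and Myct1 passed the filter on low counts only through CD206neg. The calls of this list numbered 10 lower and 1 higher with DESeq2, 3 and 1 with limma-voom, and none without litter 1, 2 or 3.

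That list also held genes present at similar or higher levels in CD206pos, so its summed level, 624 to 697 CPM in CD206neg and 542 to 753 CPM in CD206pos, overlapped. Nrp1, a semaphorin and VEGF co-receptor gene of vessels and macrophages, was at 119 ± 33.6 and 247 ± 76.4 CPM (adjusted p = 0.071), and Fli1, an ETS factor gene of blood and endothelium, at 177 ± 15.8 and 217 ± 35.3 CPM (adjusted p = 0.42). Both were named after their values were seen. The untested genes were Flt4, Robo4, Clec14a, Nos3, Etv2 and Gpr182, which had between 0 and 54 reads in any library.

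Genes of the general junction machinery lay on both sides of 0. Of 25 such genes, 18 were tested by edgeR, 1 rose, 2 fell and 15 did not pass, with a median log2 fold change of 0.19. Over all tested genes 2.97% rose and 1.90% fell. The calls numbered 2 higher and 3 lower with DESeq2 and 2 and 1 with limma-voom, 1 lower when any CD206neg library was left out, and none in either direction without litter 2 or 3. Gja1, encoding the gap junction protein connexin 43, rose 2.55-fold, from 29.5, 35.0 and 26.6 CPM to 70.3, 78.6 and 83.65 CPM in CD206pos (adjusted p = 0.0066). Ocln, encoding the tight junction protein occludin, fell from 173, 89 and 76 reads to 0, 0 and 1 (adjusted p = 0.0071). The claudin gene Cldn15 had 59, 133 and 321 reads in CD206neg and none in CD206pos, at least 164.7-fold lower (adjusted p = 0.010). The cytoplasmic partners of VE-cadherin were present in both populations, beta-catenin (Ctnnb1) at 162 ± 32.7 and 171 ± 40.0 CPM (adjusted p = 0.92) and alpha-catenin (Ctnna1) at 94.3 ± 20.6 and 190 ± 48.9 CPM (adjusted p = 0.051). Plakoglobin (Jup) was at 66.0 ± 16.3 and 83.8 ± 27.1 CPM (adjusted p = 0.62). The p120-catenin gene Ctnnd1 was sparse, at 4.81 ± 1.67 and 9.79 ± 2.71 CPM, with every CD206pos library above every CD206neg library (adjusted p = 0.29). Not tested were Ptprb, Cgn, Cldn1, Cldn3, Cldn11, Gja4 and Gja5, and Cldn1 and Cldn3 had no read in any library.

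Because several members are also carried by haemogenic cells and blood progenitors, 19 genes of those cells were set beside them. Of these, all tested by edgeR, 10 fell in CD206pos, none rose and 9 did not pass, with a median log2 fold change of -4.32. Of all tested genes 1.90% fell and 2.97% rose. Kit, the stem cell factor receptor gene, was at 73.2, 102.0 and 73.0 CPM in CD206neg with no read in CD206pos (adjusted p = 0.00042). Gfi1b, a repressor gene of the blood lineage, was at 23.3 ± 5.36 CPM in CD206neg, likewise with no read in CD206pos (adjusted p = 0.0011). Other genes of the list, named after their values were seen, had reads in every CD206pos library, among them Lyl1 (1954 to 2609 reads), Hhex (1157 to 1391), Runx1 (991 to 1405), Lmo2 (455 to 576) and Meis1 (239 to 412), beside 317 to 872 reads of Cd34. Hhex and Meis1 were nonetheless among the 10 that fell (edgeR adjusted p = 0.046 and 0.042). Lmo2 was lower in every CD206pos library than in any CD206neg library (adjusted p = 0.060). Lyl1 and Runx1 overlapped between the groups (adjusted p = 0.83 and 0.62). The count of 10 was 14 with DESeq2, and without litter 1, 2 or 3 it was 5, 1 or 7. The summed level of the list was lower in CD206pos, as for the endothelial members, at 642 to 903 CPM in CD206neg and 290 to 382 CPM in CD206pos. Within CD206neg the list was lowest in litter 3 (642 CPM) and the members in litter 2 (681 CPM). The part of the progenitor list in the difference of the members was not tested.

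The 12 macrophage reference genes were present in both populations. They include Mrc1, the gene of the sorted antigen, at 51.6 to 119 CPM in CD206neg and 1458 to 1792 CPM in CD206pos. With Mrc1, their sum was 4701 to 6215 CPM in CD206neg and 7858 to 11171 CPM in CD206pos. By edgeR 6 of the 12 rose, where 2.97% of all tested genes did. Mrc1, for which the cells were sorted, is 1 of these, and C1qa (adjusted p = 0.00084) and Adgre1 (adjusted p = 0.0071) are among the others. Lyz2 and Itgam, named after their values were seen, were higher in every CD206neg library than in any CD206pos library, at 1083 to 1862 against 851 to 1037 CPM (adjusted p = 0.16) and 24.6 to 40.1 against 14.98 to 20.5 CPM (adjusted p = 0.10). The 6 calls were 3 without CD206neg replicate 1 or 2, without CD206pos replicate 2 or 3 or without litter 3, and 0 without litter 2.

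Genes whose log2 CPM followed a member most closely over the 6 libraries were picked from 12668 tested genes, where high values are common with so few libraries that share the same groups. For Cd34 these were Cxcr2, Slc25a12 and Ccnd2 (Pearson r = 0.999, 0.998 and 0.995). For Egfl7 they were Fkbp4, Ppan and Rrm2 (r = 0.996, 0.994 and 0.992), and for Pecam1 they were Igf2, Stard10 and Lta4h (r = 0.998, 0.996 and 0.996). No gene was shared between these 3 sets.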

How the data were processed

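Each deposited file holds raw read counts per gene of a single library. The authors produced these counts with featureCounts 1.5.2 from exons of the GENCODE M14 annotation, per the file headers, and set no option for strand, pairs, multi-mapping reads or overlapping genes, so antisense reads are counted with sense reads. Tools named in the submitters' processing notes are STAR 2.3, FastQC, Subread and featureCounts, with GRCm38.p5 and mm10 as builds. Symbols came from GENCODE by gene identifier (51633 of 51912 matched).

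Counts were filtered with filterByExpr, scaled by TMM and tested with edgeR 4.0.16 in R 4.3.3 (quasi-likelihood F test, robust, no litter term, Benjamini-Hochberg over 12668 genes). The SE is the log2 fold change divided by the root of F. Floors cover counting error only, as the reads carry no molecular identifiers. Alternatives were the AGM number of the titles as a block, other scalings and filters, DESeq2 1.42.0, limma-voom (limma 3.58.1), no robust estimation, and leaving out libraries or litters. On simulated data edgeR recovered most changed genes, and DESeq2 called more unchanged genes than edgeR did. Changes were planted only in genes averaging above 5 CPM, so recovery of members below that level was not covered. All pairs of libraries within a group differed by more than sampling noise (chi-square over its degrees of freedom from 36.9 to 90.4).

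The members and lists were chosen with earlier results of these data known, so no list is independent evidence. Named genes are all members, per list up to 3 called genes per direction by p, the 2 most abundant markers of other cell types, and the 3 genes most like each of the 3 most abundant members. Further genes are marked as chosen after their values were seen, or serve as background to a member, and a gene that the rule takes is not reported here.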

Additional observations from a re-analysis of the deposited data

How the results depend on the processing

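With 3 libraries per group, the number of calls depended on the setting. Over all genes, 376 were called higher and 241 lower in CD206pos by edgeR, and 750 and 667 by DESeq2. With library totals as the only scaling the split was 273 higher and 284 lower. Leaving out a library or a litter gave 2 to 355 higher and 1 to 206 lower, with the lowest numbers without litter 2. Of the 10 endothelial genes, 2 were called lower by edgeR and 6 with DESeq2, where 1.90% and 4.63% of all genes tested by either were. The stricter filter (5 CPM in 3 libraries) tested only 5 of them and called 4, beside 257 lower over all genes. Without a library or litter 0 to 4 were called. None was called higher under any setting run. The labels give the libraries an AGM number without stating that it marks a litter. Deviations from the group means correlated between same-numbered libraries at 0.09, 0.04 and 0.18, and between differently numbered ones at -0.15 to 0.06. In all, 5 of 6 libraries correlated best with their own number, but these matches are not independent, as the deviations share group means. With that number as a replicate block 267 genes were called lower and 436 higher, and again 2 members, Egfl7 (adjusted p = 0.016) and Cd34, while Sox17 was at an adjusted p of 0.053, and no other member's call changed. The log2 fold change of Cldn5 turned from 0.60 to -3.71 with the block, -3.13 with limma-voom, -8.22 without CD206pos replicate 3 and -8.05 without litter 3 (1.19 at the highest, without CD206pos replicate 2), values that depend on the prior count where no CD206pos read is left, and DESeq2 gave it no adjusted p. The other 9 members kept their direction in every setting that tested them. Cd34 was called in 17 of 18 alternatives and Sox17 in 11 of 17. Counts were lowest for Cdh5, Cldn5 and Sox18, with at most 70, 46 and 44 reads in a CD206neg library.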

Other observations

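Markers of other cell types were counted in the same fit, in which 1.90% of all tested genes fell and 2.97% rose. Of 8 granule genes of myeloid precursors, the 7 tested fell in CD206pos by edgeR, with a summed level of 1867 to 2871 CPM in CD206neg against 17.4 to 69.7 CPM in CD206pos. The median log2 fold change of -10.75 was the fitted value of Fcnb and depends on the prior count, as 5 of the 8 genes, Fcnb among them, had no CD206pos read. By its bound Fcnb was at least 210-fold lower. Mpo, the myeloperoxidase gene, was at 1917 ± 396 and 18.1 ± 13.2 CPM (adjusted p = 0.0020), Prtn3, the proteinase 3 gene, at 347 ± 29.1 and 26.7 ± 17.3 CPM (adjusted p = 0.0025), and Fcnb, encoding ficolin B, at 12.4 ± 6.86 CPM with no read in CD206pos (adjusted p = 0.0047). With limma-voom 3 of the 7 passed, and without litter 2 none did.

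Of 5 tested megakaryocyte genes 1, Pf4, rose (6.77 ± 1.53 to 152.8 ± 4.93 CPM), a chemokine gene that macrophages also express, and none fell. In this list 1 gene was called lower with the stricter filter, DESeq2, limma-voom or without litter 3, and 2 without CD206pos replicate 3. The list shares Vwf and Itga2b with the endothelial and progenitor lists, and Itga2b was at 21.1 ± 4.79 and 1.04 ± 1.80 CPM (adjusted p = 0.12). Of 6 erythroid genes tested by edgeR none passed, with 2 at an unadjusted p under 0.05, 2 called by DESeq2 and 1 by limma-voom. Tfrc, the transferrin receptor gene, was at 58.1 ± 16.6 and 79.9 ± 12.1 CPM, and Epor, the erythropoietin receptor gene, at 0.95 ± 1.02 and 10.7 ± 1.07 CPM (adjusted p = 0.12). Of 3 epithelial genes tested none passed, with 1 at an unadjusted p under 0.05 and none called by DESeq2 or limma-voom. Krt18 was at 15.1 ± 3.82 and 1.92 ± 2.63 CPM and Krt8 at 2.97 ± 4.76 and 2.07 ± 1.31 CPM. Of 6 mesenchymal genes tested none passed, and none was at an unadjusted p under 0.05 or called by DESeq2 or limma-voom.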
